A study of Mus musculus with 248 samples.

Results

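The 8 genes described here mark the 2 subsets of blood monocytes in the mouse: Ly6c2, F13a1 and Mrc1 for classical monocytes, and Treml4, Nr4a1, Ace, Fcgr4 and Spn for non-classical monocytes. They were found by matching these symbols to Ensembl identifiers, and all 8 were present among the 18508 genes of the training cohort and the 13607 genes of the validation cohort. Classical monocytes leave the bone marrow under the chemokine receptor Ccr2 and can enter inflamed tissue, while non-classical monocytes patrol the vessel wall, depend on the nuclear receptor Nr4a1 and arise in large part from classical ones in the blood. In this leukemia model the fusion of the Cbfb and Myh11 genes acts on blood-forming progenitors, whose offspring include both subsets. In bulk blood RNA, fewer cells of a type and less RNA per cell cannot be told apart.

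Blood was drawn repeatedly from C57BL/6 mice for bulk RNA sequencing, and the labels name the sampled material as peripheral blood in the protocol and as PBMC in the tissue field. The CM mice (genotype code CHW) carried the conditional Cbfb+/56M allele together with Mx1Cre, a Cre driven by an interferon-inducible promoter. The Ctrl mice were littermates lacking 1 or both of these, with the codes CW, HW and WT (4, 2 and 1 mice in the training cohort and 4, 2 and 2 mice in the validation cohort). Both arms, females and males, were injected 7 times with poly(I:C), a mimic of viral RNA (14 mg/kg each time), when the mice were between 4 and 8 weeks old. The training cohort held 7 CM mice (55 libraries) and 7 Ctrl mice (77 libraries), sampled before induction (T0) and at months 1 to 10 (T1 to T10), with 1 extra CM time point at month 6.5. The validation cohort held 13 CM mice (68 libraries) and 8 Ctrl mice (48 libraries), sampled at T0 to T6, at weeks 10 to 28 or at leukemia (L), which the labels define by over 20% cKit+ blasts. Each replicate is a separate mouse, named below by its number.

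Depth ranged from 15.996 to 36.3 M reads over the training libraries and from 8.68 to 34.4 M over those of the validation. Levels are log2 CPM, the log2 of a gene's reads as a share of the library, scaled to counts per M reads. A gene with 0 reads sat at -6.52 in training libraries and at -6.30 in validation ones. The knock-in allele was read through a gene that both tables name MHY11, averaged over the libraries of each mouse. It lay between -3.68 and -1.82 log2 CPM in training CM mice and at or below -4.32 in training Ctrl mice. Among validation mice it lay between 3.30 and 4.62 in 12 CM mice and at or below -4.07 in the CW and WT mice, but at 3.09 and 3.17 in the 2 HW mice, so that it does not separate the arms there. Validation CM mouse 2700 went against its label at -3.67. The T0 library of CM mouse 2731, labelled female, also did, with 5.21 log2 CPM of the Y-linked Ddx3y against at most 4.06 in the other libraries labelled female. Its Xist was 1.24 at T0, 6.34 at T1, 2.09 at T2 and -1.18 log2 CPM at L, against 5.04 to 11.20 in the other libraries labelled female, so that T2 and L also stood apart, though with Ddx3y at -4.29 and -3.46. Libraries labelled male had 6.44 to 8.04 log2 CPM of Ddx3y, above that T0 library. Their Xist was -6.30 to 5.82, reaching above the lowest of the other libraries labelled female. Validation results are therefore given without mice 2700 and 2731 where that changes a call. In the training Ctrl mice the log2 CPM of most genes was lower at the late months while erythroid and platelet genes were higher, with values given beside the results they touch. For the validation cohort T0, each month and L were each taken as a sequencing run of their own. Changes between these cannot be told apart from changes of run, and T0, T1 and L were prepared without strand information. In the titles, however, the L library of mouse 2684 is numbered among the T5 libraries, apart from the other L libraries. Whether it shared their run was not tested. The weekly libraries shared 1 run.

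Some libraries stood apart in the members. At T0 the CM mouse 3334 had 7.71 log2 CPM of Ly6c2, 10.77 of F13a1 and 6.04 of Fcgr4, above the other 6 CM mice (5.82 to 6.51, 7.35 to 8.10 and 4.02 to 4.79). The same library had 8689 CPM summed over 8 genes that both monocyte subsets express, against 1804 to 2786 in the others, and 13288 CPM of neutrophil genes. At T1 the CM mouse 3370 had 7.83 log2 CPM of Ly6c2 and 10.09 of F13a1, with 7295 CPM of neutrophil genes against 1039 to 2294 in the other 6 CM mice, and among the Ctrl mice 3342 was highest in both genes (7.31 and 10.00), where the neutrophil sums reached 18091 CPM. The validation CM mouse 2719 at T3 had low Ly6c2 (3.26), Nr4a1 (2.78) and Ace (3.72 log2 CPM), with 12279 CPM of mast cell and basophil genes, above the 23.5 to 8711 of the others. In all of these, the part of other cell types in the members' levels was not tested.

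In the Ctrl mice before induction, the members were compared as CPM per kilobase of exon. In the training cohort Ly6c2, a small surface protein that defines classical monocytes, was the highest at 80.9 ± 16.1 CPM per kb (SD, n = 7). Spn, which codes for the sialoprotein CD43 found also on T cells and many other leukocytes, followed at 64.5 ± 7.00, and the ranges of the 2 genes overlapped. Ace, the angiotensin-converting enzyme (42.4 ± 10.5), F13a1, the catalytic subunit of clotting factor XIII (40.1 ± 13.8), and Nr4a1, a nuclear receptor and immediate early gene (36.8 ± 7.11 CPM per kb), could not be ordered beyond their spread. Fcgr4, an activating receptor for IgG (20.6 ± 6.83), and Treml4, a receptor of the TREM family (18.3 ± 4.21 CPM per kb), also overlapped. Mrc1, the mannose receptor CD206, was lowest at 1.63 ± 0.464 CPM per kb, with its highest mouse (2.55) far under the lowest mouse of Treml4 (14.1). In the validation cohort Spn (83.4 ± 12.6, n = 6) and Ly6c2 (61.9 ± 15.2) were again the highest pair, with overlapping ranges, and Mrc1 the lowest at 0.999 ± 0.482 CPM per kb. Ly6c1, a near-identical neighbour of Ly6c2 that could take or give some of its reads, stood at 4.80 ± 1.34 CPM per kb in the training cohort. It was higher in CM mice at T2 (1.62 ± 0.31, adjusted p = 0.00567) and lower at leukemia than at T0 (-1.99 ± 0.55, adjusted p = 0.0126).

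**Figure D1:**
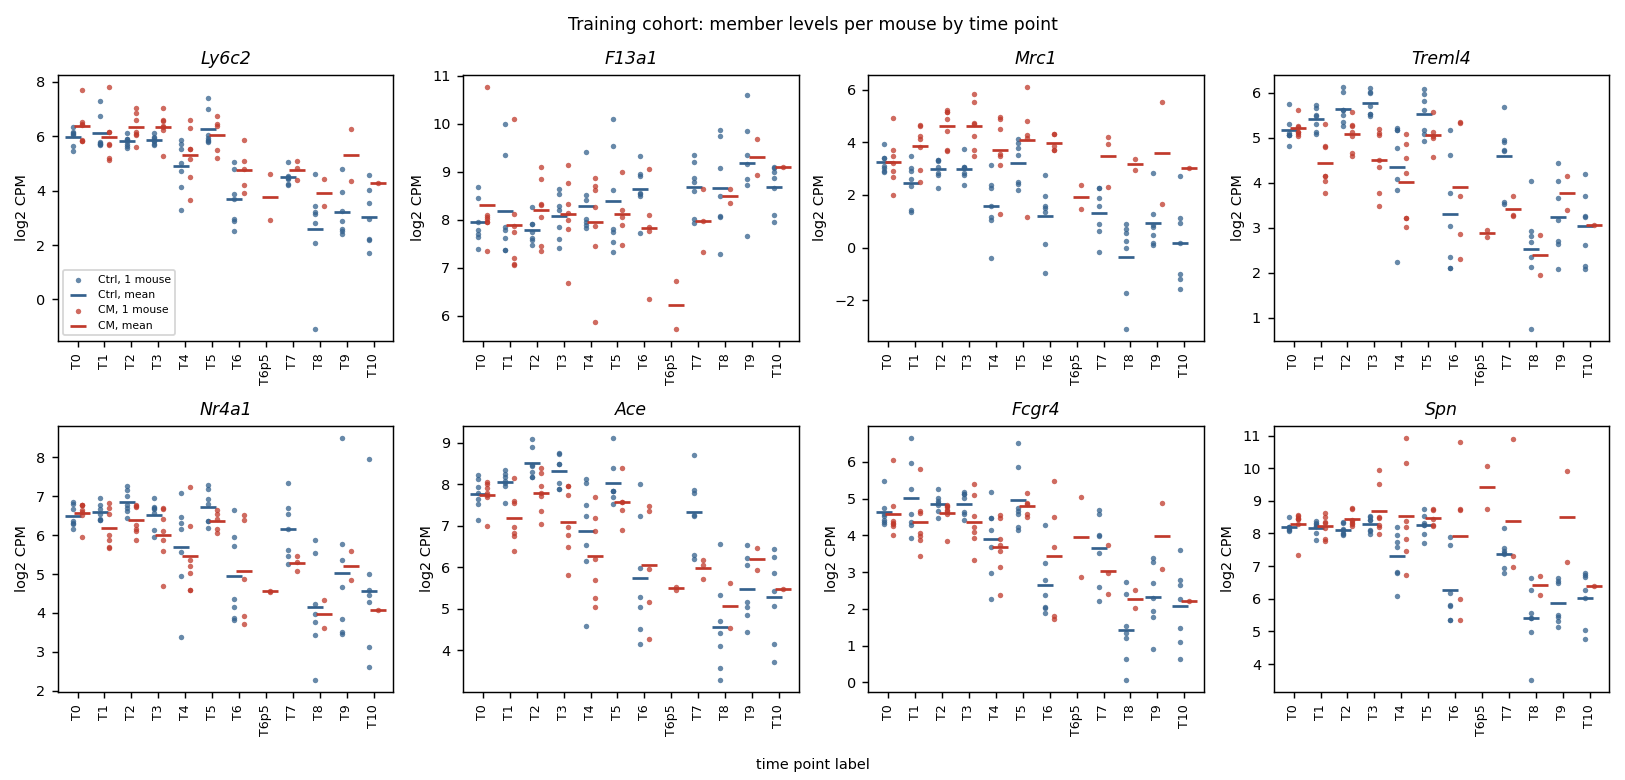
Each panel plots 1 gene in the training cohort as log2 CPM (y axis) against the time point label (x axis). A point is 1 mouse and a bar is the group mean, blue for Ctrl and red for CM. The mean of Mrc1 is higher in CM at T1 to T6, and 7 of the 8 genes, F13a1 being the exception, fall in Ctrl towards T10.

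The genes lie on 7 chromosomes of the assembly GRCm38.p6. Ly6c2 (ENSMUSG00000022584, chromosome 15, 75108161 to 75112066) and Nr4a1 (ENSMUSG00000023034, chromosome 15, 101253902 to 101274795) share 1. F13a1 (ENSMUSG00000039109) spans 36867178 to 37050244 on chromosome 13 and Mrc1 (ENSMUSG00000026712) 14229414 to 14332023 on chromosome 2. Treml4 (ENSMUSG00000051682) spans 48264200 to 48275607 on chromosome 17, Ace (ENSMUSG00000020681) 105967948 to 105989964 on chromosome 11, Fcgr4 (ENSMUSG00000059089) 171018926 to 171029761 on chromosome 1, and Spn (ENSMUSG00000051457) 127123637 to 127145552 on chromosome 7. The 250 bases before a RefSeq transcript start, from RefSeq on GRCm38.p6, are written on the strand of the gene. They are shown for Treml4 and Ace, called lower together in CM mice only at T2 of the training cohort, close to the threshold. They are also shown for Ly6c2 and Fcgr4, whose promoters hold the letters searched. Capitals mark GAGGAAGT, the core read by the myeloid factor PU.1, on either strand, and in Fcgr4 also GAAA-NN-GAAA, an interferon response element with any bases at NN.
Treml4 promoter, chr17:48264045-48264294, plus strand: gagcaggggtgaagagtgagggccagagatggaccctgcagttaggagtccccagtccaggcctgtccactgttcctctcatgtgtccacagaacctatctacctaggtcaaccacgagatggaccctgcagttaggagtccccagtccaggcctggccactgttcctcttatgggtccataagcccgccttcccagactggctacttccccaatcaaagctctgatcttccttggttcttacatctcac
Ace promoter, chr11:105967698-105967947, plus strand: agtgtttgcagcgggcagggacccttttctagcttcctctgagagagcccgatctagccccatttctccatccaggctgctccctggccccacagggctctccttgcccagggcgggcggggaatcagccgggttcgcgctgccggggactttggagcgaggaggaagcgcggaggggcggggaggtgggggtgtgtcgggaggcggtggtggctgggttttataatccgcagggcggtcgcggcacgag
Ly6c2 promoter, chr15:75111972-75112221, minus strand: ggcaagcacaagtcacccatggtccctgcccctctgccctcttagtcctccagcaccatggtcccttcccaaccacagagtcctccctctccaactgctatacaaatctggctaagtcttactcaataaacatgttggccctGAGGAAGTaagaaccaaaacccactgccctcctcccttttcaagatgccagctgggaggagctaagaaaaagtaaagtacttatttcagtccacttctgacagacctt
Fcgr4 promoter, chr1:171018676-171018925, plus strand: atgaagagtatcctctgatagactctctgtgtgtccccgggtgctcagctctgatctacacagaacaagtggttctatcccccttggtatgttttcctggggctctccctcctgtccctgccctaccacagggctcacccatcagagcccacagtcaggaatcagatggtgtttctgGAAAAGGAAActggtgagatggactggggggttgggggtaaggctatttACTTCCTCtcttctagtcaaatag

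From 250 bases before to 50 after the start, GAGGAAGT was present on either strand in 3.20% of 32851 RefSeq promoters and in Ly6c2, Fcgr4 and a second promoter of F13a1. GAAA-NN-GAAA was present in 3.44% of the promoters and, among the members, in Fcgr4. In Fcgr4 the first lies 24 bases and the second 73 bases before the start, and in Ly6c2 the first lies before the start, as shown, and again 26 bases after it. No member promoter held AAAGGTCA (the single site of Nr4a1 itself, 1.51% of promoters), TTGCGCAA (C/EBP, 0.183%), TGACTCA (AP-1, 5.20%) or CCACACCC (KLF, 3.56%). No match says only that these letters are not in this window, and no overlap between the motifs was found in the sequences shown.

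The first question was whether the arms differed at each month. Before induction, none of the 8 members passed the test, which was an adjusted p under 0.05 by limma over all genes of the cohort. In the training cohort 0.0054% of all genes (1 gene) passed at T0. In the validation cohort 0% passed (0 of 13607 genes by limma and by voom, with 208 at an unadjusted p under 0.05). The CM minus Ctrl difference of the members ranged from -0.13 (Ace) to 0.59 (F13a1) on the log2 scale in the training cohort, and without mouse 3334 that of F13a1 was 0.06.

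Mrc1 was higher and Treml4 and Ace were lower in CM than in Ctrl mice in the first months after induction of the training cohort. Treml4 passed at T1 and T2, Ace at T2, and Mrc1 at T2 and T3. At T1 1 of the 8 members passed, beside 5.02% of all genes. At T2 3 members passed, Mrc1 higher and Treml4 and Ace lower, beside 11.7% of all genes (5.46% higher and 6.25% lower; 1430 higher and 1001 lower after scaling each library by its median ratio to the others, against 1010 and 1157). At T3 Mrc1 alone passed, beside 0.632% of all genes (58 higher and 59 lower, or 49.6% higher, against 67.8% higher with median ratios).

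At T2 the level of Mrc1 was 3.68, 3.72, 4.41, 4.90, 5.14, 5.14 and 5.23 log2 CPM in the 7 CM mice, with a median of 4.90. In the 7 Ctrl mice it was 2.28 at the lowest, 3.08 at the median and 3.34 at the highest. Every CM mouse was above every Ctrl mouse. The log2 fold change was 1.64 ± 0.29 (SE; adjusted p = 0.00295), and it stayed between 1.51 and 1.88 with an adjusted p of at most 0.0109 when any 1 mouse was left out. In 1 fit over months 0 to 6 with the mouse as a replicate block and the library batch as a term it was 1.72 (adjusted p = 0.0905). At T1 the CM mice had 2.48 to 4.67 log2 CPM of Mrc1 (median 4.14) and the Ctrl mice 1.35 to 3.48 (median 2.61), overlapping, with a log2 fold change of 1.42 ± 0.42 (adjusted p = 0.0663, and 0.0208 with median ratios). The Ctrl mice also stood lower at T1 than at T0 without passing, at -0.93 to -0.58 with any 1 mouse left out. The part of this in the T1 difference was not tested. At T3 the values were 3.48 to 5.83 (median 4.70) and 2.37 to 3.73 (median 3.02), and the ranges overlapped through CM mice 3357 and 3336 and Ctrl mouse 3335. The log2 fold change at T3 was 1.76 ± 0.33 (adjusted p = 0.0289), and the call was lost without any of mice 3339, 3340, 3346, 3349, 3350, 3368 and 3370, at 1.59 to 1.80 and an adjusted p of up to 0.144. It was also lost in the fit with a replicate block and the library batch (1.82, adjusted p = 0.100).

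Since Mrc1 is also made by tissue macrophages, their genes were read beside it. At T2 1 of 9 measured macrophage genes passed (Stab1, an endothelial and macrophage scavenger receptor, 0.57 ± 0.15, adjusted p = 0.0297), and their summed level was 8.92 to 15.3 CPM in CM and 6.43 to 11.1 CPM in Ctrl mice. Mast cell and basophil genes summed to 39.4 to 446 CPM in CM and 22.4 to 32.1 CPM in Ctrl mice at T2, with 3 of 6 called higher. Among 7 dendritic cell genes, the only one called was Xcr1, which was lower (-1.58 ± 0.43, adjusted p = 0.0305). The part of these cells in the level of Mrc1 was not tested.

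Treml4 at T1 was 3.77, 4.03, 4.14, 4.16, 4.79, 4.82 and 5.31 log2 CPM in the 7 CM mice, with a median of 4.16. In Ctrl mice it was 5.09 at the lowest, 5.49 at the median and 5.72 at the highest. Only CM mouse 3370, the library rich in neutrophil genes, reached the range of the Ctrl mice. The log2 fold change was -0.85 ± 0.19 (adjusted p = 0.0213). The call of Treml4 at T1 was lost without Ctrl mouse 3349 (adjusted p = 0.0700) or 3350 (0.0718), with median ratios (-0.64, adjusted p = 0.0607) and in the fit with a replicate block (-0.96, adjusted p = 0.191). At T2 Treml4 was 4.60 to 5.57 log2 CPM (median 5.12) in CM and 5.27 to 6.14 (median 5.61) in Ctrl mice, a log2 fold change of -0.58 ± 0.18 (adjusted p = 0.0499). At T3 its ranges no longer overlapped, with 3.49 to 5.21 log2 CPM (median 4.50) in CM and 5.49 to 6.11 (median 5.70) in Ctrl mice. The log2 fold change of Treml4 at T3 was -1.23 ± 0.27 with an adjusted p of 0.0550, and in the fit with a replicate block it was -1.25 (adjusted p = 0.0456).

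Ace at T2 was 7.04 to 8.38 log2 CPM (median 7.78) in CM and 8.18 to 9.10 (median 8.44) in Ctrl mice. CM mice 3336 (8.27) and 3334 (8.38) lay within the Ctrl range and the other 5 below it. For Ace at T2 the log2 fold change was -0.73 ± 0.22 (adjusted p = 0.0480). The T2 calls were near the threshold: that of Treml4 was kept only without mouse 3335, 3336 or 3338, that of Ace only without 3334 or 3336, and both were lost with median ratios (adjusted p = 0.151 and 0.124) or the replicate block (0.734 and 0.627). Ace also stood lower at T1 (-0.77 ± 0.23, adjusted p = 0.0663) and T3 (-1.17 ± 0.33, adjusted p = 0.124) without passing.

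The other 5 members did not pass at T1 to T3. For Nr4a1 at T2 the CM mice had 5.88 to 6.78 log2 CPM (median 6.26) and the Ctrl mice 6.43 to 7.27 (median 6.77), overlapping, and the log2 fold change was -0.51 ± 0.18 (adjusted p = 0.0780). Fcgr4 differed by -0.28 ± 0.16 (adjusted p = 0.299), F13a1 by 0.61 ± 0.19 (adjusted p = 0.0513, and 0.0373 with median ratios), Ly6c2 by 0.49 ± 0.20 (adjusted p = 0.125) and Spn by 0.32 ± 0.11 (adjusted p = 0.0851, and 0.0185 with median ratios). The median difference at T2 was 0.61 over the 3 classical and -0.51 over the 5 non-classical genes, with -0.09 over all genes. These medians are the values of F13a1 and Nr4a1, neither of which passed. The classical and non-classical medians were 0.05 and -0.37 at T1 and 0.54 and -0.45 at T3. In the validation cohort they were 0.66 and -0.11 at T1, -0.12 and -0.41 at T2, and -0.41 and -0.72 at T3. Whether the subsets differ was not tested.

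Genes of both subsets that are not members moved in part with them. Of 9 other non-classical genes, Cx3cr1, the fractalkine receptor, was lower at T1 (-1.39 ± 0.23, adjusted p = 0.00269) and T2 (-0.92 ± 0.11, adjusted p = 0.000366), Pou2f2 was lower at T2 (-0.60 ± 0.12, adjusted p = 0.00594) and Cd9, which platelets also carry, was higher (0.91 ± 0.26, adjusted p = 0.0400). Of 7 other classical genes, Chil3, a secreted chitinase-like protein, was higher at T2 (1.42 ± 0.35, adjusted p = 0.0197). None of the 8 genes shared by the subsets passed at T1, T2 or T3, and Csf1r, the receptor for the growth factor of monocytes, differed by -0.41 ± 0.28 at T1 and -0.33 ± 0.17 at T2. Among 9 regulators, Csf1 (-0.94 ± 0.17, adjusted p = 0.00318) and Irf8 (-0.76 ± 0.10, adjusted p = 0.000755) were lower at T2. Cell types outside the monocytes moved at the same time. At T2 all 8 T cell genes were higher, and Spn, which T cells carry, did not pass. At T1 6 of 7 NK cell genes were lower, and all 8 platelet and 6 measured erythroid genes were higher, with an erythroid sum of 4691 to 44973 CPM in CM and 1242 to 3879 CPM in Ctrl mice.

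**Figure D2:**
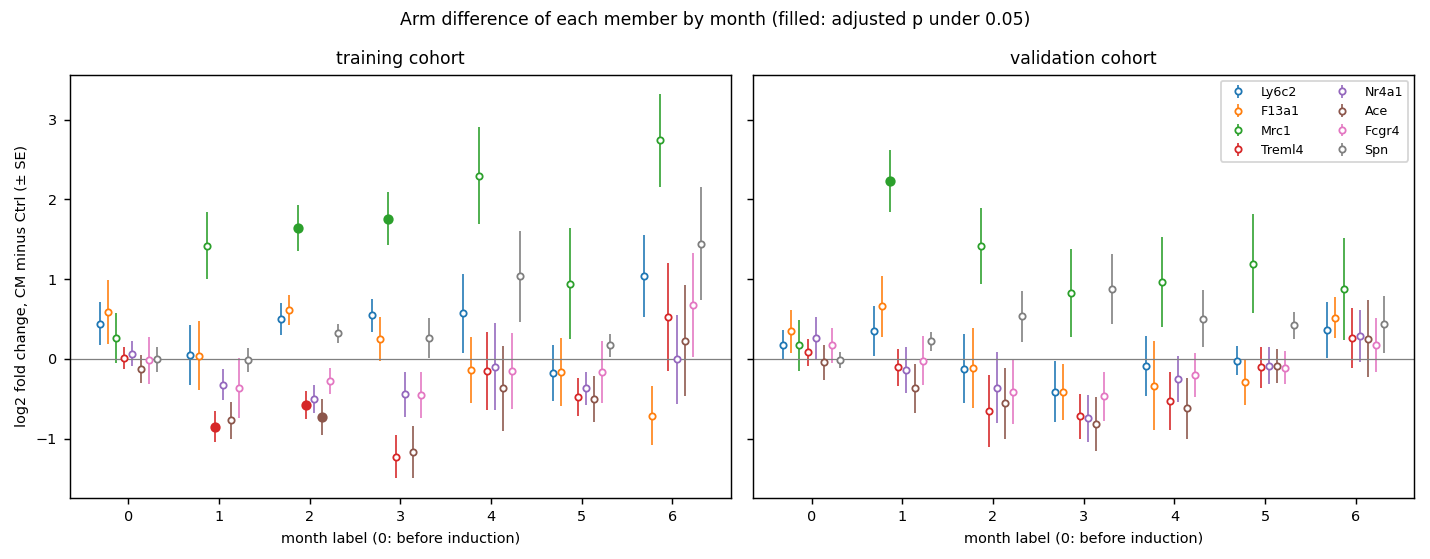
The CM minus Ctrl log2 fold change (y axis, ± SE) of the 8 genes is plotted against the month (x axis) for the training cohort on the left and the validation cohort on the right. Filled points passed an adjusted p under 0.05. Mrc1 is the highest point at T1 to T6 in the training cohort, while Treml4 and Ace are the lowest pair at T1 to T3.

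In months 4 to 6 of the training cohort no member passed, beside 0.0054%, 0% and 0.0162% of all genes (1, 0 and 3 genes; at month 5 voom gave 0 and 1583 genes had an unadjusted p under 0.05). Mrc1 differed by 2.29 ± 0.61 at T4 (adjusted p = 0.581), by 0.94 ± 0.69 at T5 (adjusted p = 0.652) and by 2.74 ± 0.58 at T6 (adjusted p = 0.159). At T5 the 5 CM mice, at 1.15 to 6.11 log2 CPM, spanned the whole Ctrl range of 2.19 to 4.11, and the difference was 0.41 without mouse 3370 and 1.87 without mouse 3334. At T6 its 5 CM mice had 3.71, 3.72, 3.87, 4.32 and 4.32 log2 CPM, and the 7 Ctrl mice -0.98 to 2.76 (median 1.50), with no overlap. The Ctrl mice thus stood lower at T6 than at T5, and the CM values of 3.71, 3.72 and 3.87 lay within the T5 Ctrl range. The part of the lower Ctrl level in the T6 difference of Mrc1 was not tested. In the fit over months 0 to 6 with a replicate block Mrc1 passed at T4 (2.19, adjusted p = 0.00297) and T6 (2.84, adjusted p = 0.000105), as did Ly6c2 (1.11, adjusted p = 0.0330) and Spn (1.59, adjusted p = 0.00621) at T6. With the library batch as a further term Mrc1 at T4 (2.09, adjusted p = 0.0359) and T6 (2.94, adjusted p = 0.000421) and Spn at T6 (1.59, adjusted p = 0.0144) still passed, and Ly6c2 did not.

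In the validation cohort Mrc1 was again higher at T1. The 10 CM mice had 2.96 to 5.90 log2 CPM (median 4.76) and the 6 Ctrl mice 2.01 to 2.78 (median 2.18). Every CM mouse was above every Ctrl mouse, with mice 2709 (2.96), 2700 (3.10) and 2731 (3.42) the nearest to them. The log2 fold change was 2.22 ± 0.39 (adjusted p = 0.00416), between 2.02 and 2.38 with any 1 mouse left out, and 2.51 without mice 2700 and 2731. It was the only 1 of the 8 members to pass, beside 28.5% of all genes (7.95% higher and 20.6% lower; 1389 higher and 1203 lower with median ratios, against 1082 and 2802). Of 7 dendritic cell genes 2 were called higher and none lower, and of 6 measured macrophage genes 4 were higher and none lower. They included Cd209a (0.99 ± 0.24, adjusted p = 0.00983) and Clec10a (1.75 ± 0.32, adjusted p = 0.00416), lectins of dendritic cells, and C1qa, C1qb and C1qc, complement subunits made by macrophages (2.02 to 3.93, adjusted p of at most 0.0338). Macrophage genes summed to 4.60 to 20.2 CPM in CM and 4.69 to 8.61 CPM in Ctrl mice, and their part in the level of Mrc1 was not tested.

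No non-classical gene passed between the arms in the validation cohort. At T1 Treml4 was 4.19 to 5.92 log2 CPM (median 4.65) in CM and 4.76 to 5.31 (median 4.78) in Ctrl mice, and the difference was -0.11 ± 0.23 (adjusted p = 0.761). Ace differed by -0.37 ± 0.31 (adjusted p = 0.380). The highest CM mouse for both was 2690 (5.92 and 7.73 log2 CPM), which also had the highest Ly6c2, F13a1, Mrc1, Nr4a1 and Fcgr4 at that month. At T3 Treml4 (-0.72 ± 0.28), Nr4a1 (-0.74 ± 0.30) and Ace (-0.81 ± 0.34) lay lower in CM, each at an adjusted p of 0.298. Whether the T1 differences of Treml4 and Ace are unlike in the 2 cohorts was not tested.

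From T2 to T6 no member passed in the validation cohort, beside 0.147% of all genes at T2 and 0% at T3, T4, T5 and T6. Voom gave 0 genes at each of these 5 months. An unadjusted p under 0.05 was reached by 1374, 2224, 369, 1169 and 469 genes in turn. Mrc1 differed between CM and Ctrl mice by 1.42 ± 0.48, 0.83 ± 0.56, 0.96 ± 0.57, 1.19 ± 0.62 and 0.88 ± 0.64 at these months, with 9 of 10, 6 of 9, 4 of 5, 3 of 5 and 2 of 4 CM mice above the Ctrl mean. With 1 mouse left out the difference ranged from 0.38 (without Ctrl mouse 2705) to 1.52 (2700) at T4, from 0.73 (2686) to 1.66 (2685) at T5 and from 0.16 (2686) to 1.35 (2685) at T6. Spn was higher by 0.88 ± 0.44 at T3 (adjusted p = 0.298, and 0.0199 at 0.90 in the fit with a replicate block).

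**Figure D3:**
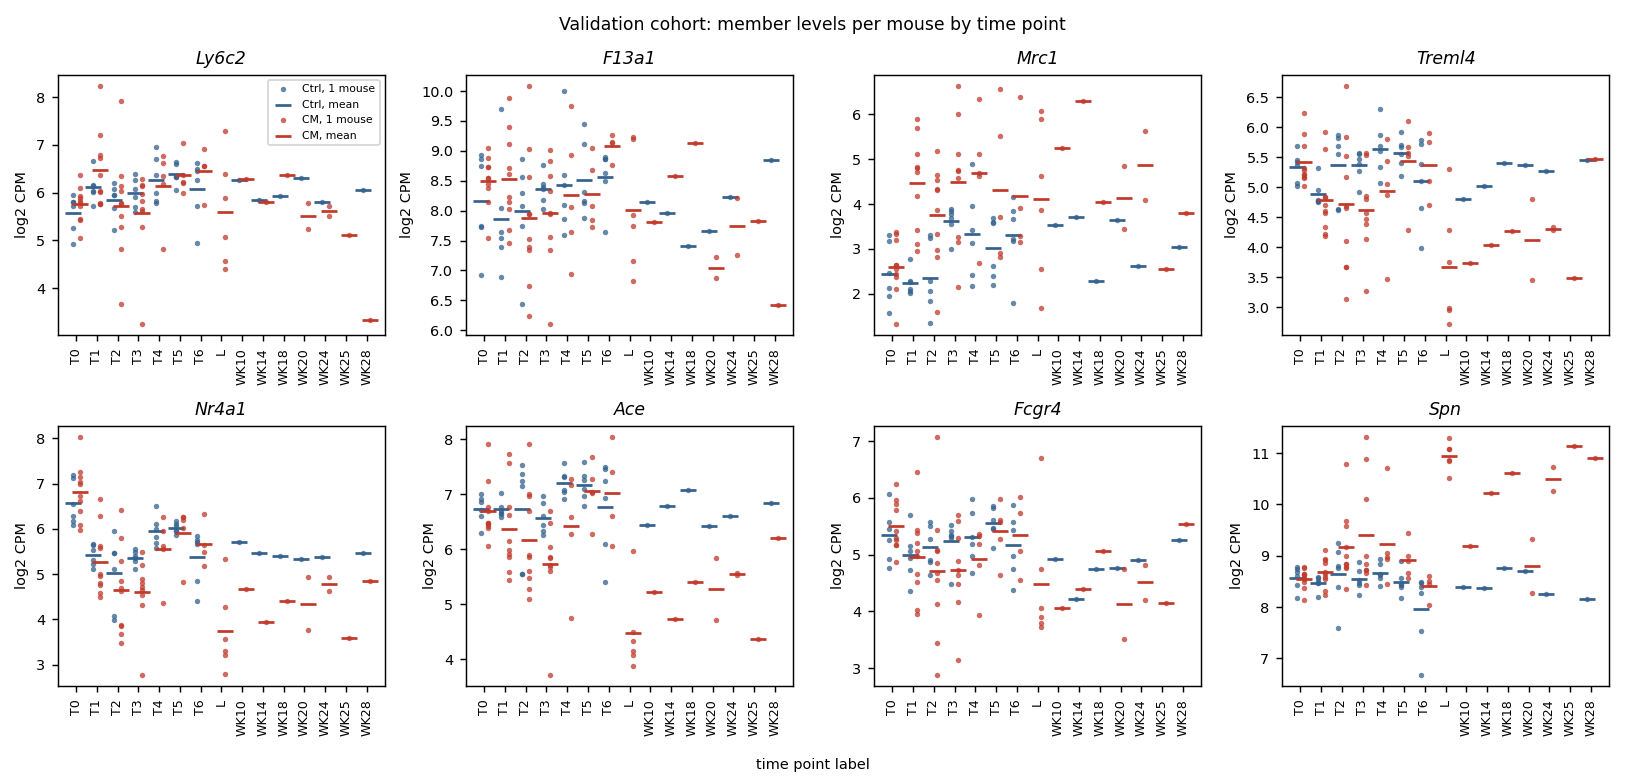
Each panel plots 1 gene in the validation cohort as log2 CPM (y axis) against the time point label (x axis), where T is months, L leukemia and WK weeks. A point is 1 mouse and a bar is the group mean, blue for Ctrl and red for CM. At L all 6 CM mice lie between 10.52 and 11.30 for Spn, above every library of T0, while Nr4a1 and Ace lie below every T0 library of the same mice.

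The step from Ly6c2 to Treml4 within a library gives the balance of a classical and a non-classical gene, and it is described here with no test. In training Ctrl mice Ly6c2 minus Treml4 was 0.81 ± 0.33 at T0, 0.69 ± 0.50 at T1, 0.17 ± 0.34 at T2 and 0.10 ± 0.23 log2 units at T3 (SD, n = 7). In CM mice it was 1.16 ± 0.53, 1.56 ± 0.52, 1.27 ± 0.58 and 1.84 ± 0.49 at the same months. At T3 the lowest CM mouse (1.17) was above the highest Ctrl mouse (0.42). At T0 to T2 and at T4 to T6 the ranges overlapped. At T7, T8 and T9, with 3, 2 and 2 CM mice, they did not. At T1 of the validation cohort the values were 1.68 ± 0.49 in CM (n = 10) and 1.23 ± 0.16 in Ctrl mice (n = 6), with CM mice from 1.08 to 2.37 and Ctrl mice from 0.94 to 1.41. At T0 of the validation cohort it was 0.34 ± 0.33 in CM and 0.25 ± 0.53 in Ctrl mice, so that both arms stood higher at T1 than at T0. From T2 to T6 the ranges of the arms overlapped. The 6 leukemia libraries had 1.93 ± 0.92, from 0.28 in mouse 2690 to 2.90.

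Whether the members moved within a mouse over the follow-up was asked in both cohorts. In the sample names only the L libraries of the validation cohort are marked as leukemia. The last training libraries carry a month alone, so that they are not known here to be leukemic. In the 7 training CM mice the last library, taken at months 4 to 10, had less Ly6c2, Treml4, Nr4a1 and Ace and more Spn than T0 of the same mouse. That is 5 of 8 members called, 1 higher and 4 lower, beside 46% of all genes (10.1% higher and 35.9% lower; 4325 higher and 5109 lower with median ratios, against 1869 and 6639). The median change of all genes was -0.57 on the log2 scale, and -0.11 with median ratios.

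Spn at T0 was 7.33, 8.30, 8.43, 8.43, 8.46, 8.52 and 8.56 log2 CPM in mice 3334, 3338, 3370, 3336, 3368, 3357 and 3341. In their last libraries it was 10.07, 10.94, 9.90, 10.90, 6.39, 10.15 and 10.80. It went up in 6 mice and down in mouse 3368, whose last library was at month 10. Over the 7 mice the log2 fold change was 1.59 ± 0.50 (adjusted p = 0.0214). The call was lost without any of mice 3334, 3336, 3338, 3341 and 3357, at 1.39 to 1.58 and an adjusted p of up to 0.0636, and without mouse 3368 it was 2.20 (adjusted p = 7.7e-05).

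Ace went down in 7 of 7 mice, from 6.99 to 8.05 log2 CPM (median 7.78) at T0 to 5.03 to 7.36 in the last libraries. Its log2 fold change was -1.91 ± 0.32 (adjusted p = 0.000623, and -1.44 with 0.00628 with median ratios). Treml4 and Nr4a1 went down in 6 of 7 mice, with log2 fold changes of -1.58 ± 0.35 (adjusted p = 0.00332) and -1.50 ± 0.34 (adjusted p = 0.00351), and mouse 3341 was the exception for both. Ly6c2 fell from 7.71 to 2.91 log2 CPM in mouse 3334 and by 0.73 to 2.13 in 5 other mice, and stood 0.43 higher in mouse 3370. Its log2 fold change was -1.69 ± 0.49 (adjusted p = 0.0149), between -2.04 and -1.17 without any 1 mouse (adjusted p of at most 0.0453), and -1.22 with median ratios (adjusted p = 0.0946). F13a1 (-1.0 ± 0.62, and -0.33 without mouse 3334), Fcgr4 (-0.68 ± 0.38) and Mrc1 (0.42 ± 0.59, and 1.06 without mouse 3334, adjusted p = 0.0495) did not pass over the 7 mice.

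Ctrl mice also moved with time, so the change in CM mice was set against the change from T0 to T6 in Ctrl mice. Of the last CM libraries 1 was at month 6 and the others at months 4 to 10, so that the months were not matched mouse by mouse. Those of mice 3338 and 3357 were at month 4. By T6 Spn had fallen in every Ctrl mouse, and Mrc1 stood lower in Ctrl mice at T6 than at T5. The low Ctrl level at T6 therefore enters the differences below, and its part in them was not tested. Spn and Mrc1 differed in their change, both higher in CM, beside 37.5% of all genes (29.5% higher and 7.98% lower; 2905 higher and 3742 lower with median ratios, against 5464 and 1477). The median difference of all genes was 0.61, and -0.25 with median ratios. Spn changed by -2.07 to 2.74 in the CM mice and by -2.87 to -0.43 in the Ctrl mice. The difference of the changes was 3.24 ± 0.62 (adjusted p = 0.00249), at least 2.76 without any 1 mouse, and 2.32 with median ratios (adjusted p = 0.00492). That of Mrc1 was 2.03 ± 0.72 (adjusted p = 0.0334), and its call was lost without any of mice 3336, 3338, 3340, 3346, 3349, 3350 and 3370, at 1.32 to 2.05 and an adjusted p of up to 0.136, and with median ratios (1.11, adjusted p = 0.253).

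For Ace, Treml4, Nr4a1 and Ly6c2 the changes in CM and in Ctrl mice did not pass the test of their difference. The differences of the changes were 0.14 ± 0.56, 0.19 ± 0.53, -0.25 ± 0.46 and 0.45 ± 0.63. With median ratios those of Ace, Treml4 and Ly6c2 turned to -0.78, -0.73 and -0.48, and that of Nr4a1 was -1.18 with an adjusted p of 0.0293. Fcgr4 differed by 1.21 ± 0.48 (adjusted p = 0.0531). It ranged from 0.77 without mouse 3370 (adjusted p up to 0.205 over the mice left out) to 1.66 without mouse 3368 (adjusted p = 0.00282), and was 1.90 against the Ctrl change to T10 (adjusted p = 0.0252). F13a1 differed by -1.66 ± 0.74 (adjusted p = 0.0806), by -0.59 without mouse 3334 (adjusted p = 0.360), by -2.17 without mouse 3368 (adjusted p = 0.0186) and by -2.58 with median ratios (adjusted p = 0.0497). In the CM mice 6 of 6 mast cell and basophil genes changed more, with a median of 8.50, as did Kit (5.83 ± 0.71, adjusted p = 0.000193), the receptor that marks the blasts.

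In the validation cohort 6 CM mice had libraries both at T0 and at leukemia. Nr4a1, Ace, Treml4 and Fcgr4 were lower and Spn was higher at L, which is 5 of 8 members beside 64.5% of all genes (31.4% higher and 33% lower). The share of members called is near that of all genes. Over the 6 mice the 5 called members were all non-classical genes, and none of the 3 classical genes passed. Without mouse 2731 Fcgr4 no longer passed (adjusted p = 0.0605), and Mrc1, a classical gene, did (2.12, adjusted p = 0.0224).

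Nr4a1 was 5.99 to 8.02 log2 CPM (median of the 10 T0 mice 6.86) before induction in the 6 mice and 2.80, 3.21, 3.31, 3.57, 4.28 and 5.33 at L. It fell in all 6 mice with no overlap, by 3.15 on the log2 scale ± 0.48 (adjusted p = 0.000611). In Ctrl mice of this cohort Nr4a1 was also lower at T1 than at T0 (-1.15). No Ctrl mouse had an L library, and T0 and L were different runs, so a drop shared by both arms cannot be told apart here. Ace at L was 3.87, 4.07, 4.14, 4.33, 4.49 and 5.96 log2 CPM, below the T0 range of 6.06 to 7.92, with a log2 fold change of -2.23 ± 0.40 (adjusted p = 0.00153). Treml4 at L was 2.73, 2.96, 2.99, 3.75, 4.28 and 5.30 log2 CPM, below T0 in every mouse except 2690 (5.02 to 5.30), and changed by -1.81 ± 0.44 (adjusted p = 0.00661). Fcgr4 changed by -1.26 ± 0.39 (adjusted p = 0.0202) and lost its call without any of mice 2708, 2718 and 2731, at -1.13 to -1.02 and an adjusted p of up to 0.0633. Without mouse 2731, whose T0 library went against its label, the other called members still passed, at -2.90 for Nr4a1, -2.11 for Ace, -1.59 for Treml4 and 2.42 for Spn (adjusted p of at most 0.0221).

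Mouse 2690 was high at L for Ace (5.96) and Fcgr4 (6.71 log2 CPM, against 3.72 to 4.75 in the others). Its library held 6506 CPM of neutrophil genes against 179 to 2345 in the others, and neutrophils also carry the receptor Fcgr4. Without it Ace changed by -2.66, Fcgr4 by -1.66 and Treml4 by -2.22. In the other 5 leukemia libraries the part of neutrophils in Fcgr4 was not tested.

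Spn was 8.49, 8.55, 8.64, 8.65, 8.76 and 8.78 log2 CPM at T0 and 10.52 to 11.30 (median 10.98) at L. It was higher in 6 of 6 mice with no overlap, with a log2 fold change of 2.31 ± 0.14 (adjusted p = 6.17e-06). Genes of T cells, which carry CD43, were lower: 8 of 8 T cell genes were lower at L, and they summed to 77.7 to 376 CPM against 399 to 778 CPM at T0. Genes of progenitors (5 of 5 higher, 412 to 3099 CPM at L and 5.91 to 12.1 CPM at T0) and of mast cells and basophils (5 of 6 higher, 4872 to 11159 CPM at L) rose at the same time, and their part in the level of Spn was not tested.

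The classical genes went different ways between mice. Ly6c2 was higher at L than at T0 in mice 2690 (5.72 to 7.29) and 2719 (5.46 to 6.38), lower in mice 2684, 2708 and 2718 by 1.29 to 1.53, and level in mouse 2731 (5.89 at both). Its log2 fold change was -0.28 ± 0.43 (adjusted p = 0.582). F13a1 had a log2 fold change of -0.50 ± 0.48 (adjusted p = 0.377) and was higher in the same mice 2690 and 2719. Mrc1 stood 2.07 to 3.69 higher at L in mice 2684, 2690, 2708 and 2719 and lower in 2718 and 2731, for a log2 fold change of 1.63 ± 0.66 (adjusted p = 0.0558, 0.0106 with voom, and 0.0224 at 2.12 without mouse 2731).

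Other monocyte genes were counted at L beside the members. Of 9 other non-classical genes 8 were lower and none higher, with a median of -2.16, among them Cd9 (-4.05 ± 0.53), Cx3cr1 (-2.64 ± 0.36) and the fatty acid receptor Cd36 (-2.60 ± 0.18). Platelets carry Cd9 and Cd36 too, and 6 of 8 platelet genes were lower at L. Of 7 other classical genes 2 were higher (Chil3, 2.67 ± 0.47, and Vcan, a matrix proteoglycan, 1.64 ± 0.56) and 1 lower, with a median of -0.34. Of the 8 shared genes 3 were lower (Lyz2, Ms4a6c and Csf1r), with a median of -0.75, and the median of all genes was -0.04. Whether the 2 subset lists differ was not tested. Immediate early genes, which respond as Nr4a1 does to cell handling and signalling, were lower in 5 of 8 cases, led by Dusp1 (-3.72 ± 0.37) and Fos (-3.21 ± 0.24), and their part in Nr4a1 was not tested.

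**Figure D4:**
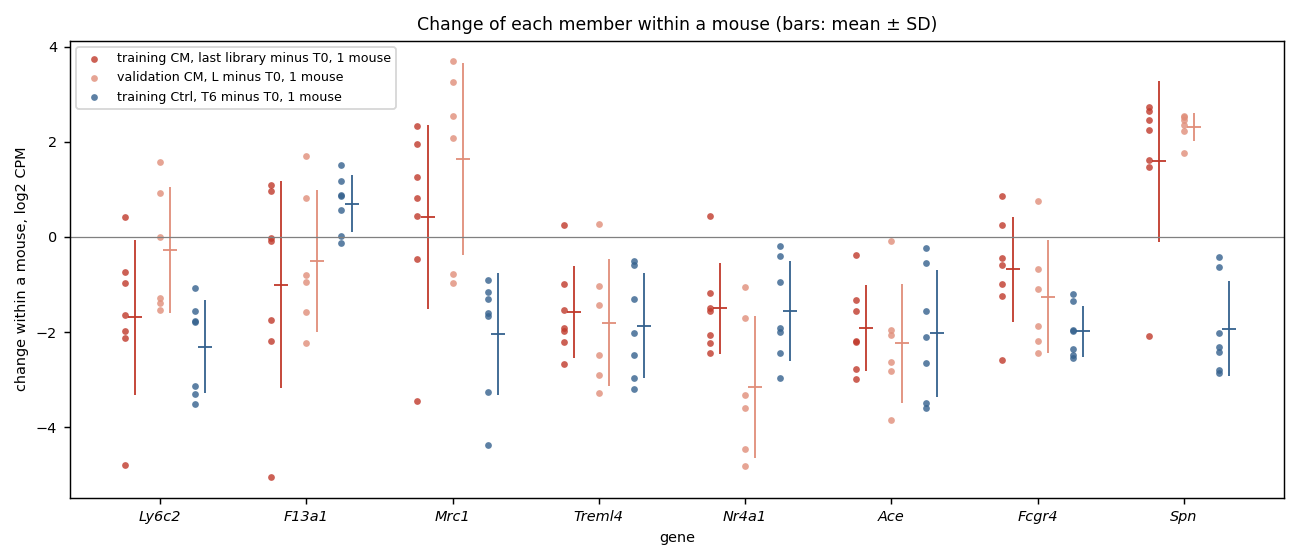
The change within a mouse in log2 CPM (y axis) is plotted for each gene (x axis), with 1 point per mouse and bars for the mean ± SD. Dark red is the last training CM library minus T0, light red validation L minus T0, and blue training Ctrl T6 minus T0. Spn rises in 6 of 7 training and 6 of 6 validation CM mice and falls in all 7 Ctrl mice.

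The weekly libraries of the validation cohort came from 3 CM and 2 Ctrl mice, with 1 or 2 mice of an arm at a week, and are given as values with no test. At weeks 20 to 28 the CM mice 3130 and 3131 are labelled female and the Ctrl mouse 3127 male. Arm and sex cannot be told apart at these weeks. CM mouse 3200 had less Treml4 than Ctrl mouse 3202 at weeks 10, 14 and 18 (3.73, 4.03 and 4.27 against 4.80, 5.02 and 5.41 log2 CPM). It also had less Ace at the same weeks (5.22, 4.74 and 5.40 against 6.45, 6.78 and 7.07) and more Mrc1 (5.26, 6.30 and 4.05 against 3.54, 3.71 and 2.29). Spn in mouse 3200 was 9.19, 10.21 and 10.61 log2 CPM at these weeks, above the 8.40, 8.37 and 8.76 of the Ctrl mouse at every week. In CM mouse 3130 Treml4 was 4.80, 4.28 and 3.49 log2 CPM and Ace 5.84, 5.56 and 4.36 at weeks 20, 24 and 25, below Ctrl mouse 3127 at weeks 20 and 24 (5.38 and 5.28 of Treml4, 6.42 and 6.61 of Ace). Its Spn was 9.32, 10.74 and 11.14, against 8.70 and 8.26 in mouse 3127 at weeks 20 and 24. Mrc1 was less even between the mice. It was 4.85, 5.64 and 2.55 in mouse 3130 and 3.45, 4.09 and 3.81 log2 CPM in CM mouse 3131 at weeks 20, 24 and 28, against 3.65, 2.63 and 3.05 in mouse 3127, so that mouse 3131 was below the Ctrl mouse at week 20 and the week 25 value of mouse 3130 was below every value of mouse 3127. In CM mouse 3131 Spn was 8.27 at week 20, 10.25 at week 24 and 10.91 at week 28, while Ly6c2 was 5.23, 5.52 and 3.34. At week 28 this mouse had 5.47 log2 CPM of Treml4, level with the 5.45 of Ctrl mouse 3127, and 3.34 of Ly6c2 against 6.05. It is the only weekly library with less Ly6c2 than Treml4, by -2.13 log2 units.

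The Ctrl mice, which lack the fusion, were set against their own T0. From T0 to T1 age and poly(I:C) cannot be told apart, and in the validation cohort neither can the sequencing run. In the training cohort no member passed the test of T1 against T0, beside 0% of all genes (0 by limma, 3 by voom, and 1151 at an unadjusted p under 0.05). Mrc1 lay lower at T1 without passing. Its log2 fold change by limma was between -0.93 and -0.58 when any 1 mouse was left out (adjusted p of at least 0.341). In the validation cohort Nr4a1 (-1.15 ± 0.16, adjusted p = 0.00303), Treml4 (-0.44 ± 0.09, adjusted p = 0.00920) and Fcgr4 (-0.35 ± 0.11, adjusted p = 0.0496) were lower at T1 than at T0. These 3 members stand beside 33.3% of all genes (25.7% higher and 7.58% lower; 2051 and 2067 with median ratios, against 3501 and 1031). Nr4a1 in the 6 mice went from 6.08 to 7.19 log2 CPM (median 6.42) to 5.10 to 5.67 (median 5.43), with no overlap, and 6 of 8 immediate early genes fell with it, from 1530 to 2941 CPM in sum to 689 to 935 CPM. Treml4 was lower in 6 of 6 mice, and Fcgr4 in 5 of 6, its call lost without any of mice 2683, 2689, 2702, 2705 and 2720, at an adjusted p of up to 0.130.

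At month 10 the 7 training Ctrl mice had less of 7 members and more F13a1 than at T0. All 8 members passed, beside 83.1% of all genes (10.5% higher and 72.7% lower), and the median of all genes was -1.81. With median ratios, which bring that median to -0.17, 8373 genes passed (4460 higher and 3913 lower), and of the members Treml4, Nr4a1 and Fcgr4 no longer did. Ly6c2 went from 5.47 to 6.35 log2 CPM (median 6.10) at T0 to 1.69 to 4.59 (median 2.95) at T10, with no overlap, a log2 fold change of -2.95 ± 0.40 (adjusted p = 0.000905, and -1.25 with 0.00174 with median ratios). Mrc1 changed by -3.06 ± 0.46 (adjusted p = 0.00128), and by -1.37 with median ratios (adjusted p = 0.0148). Spn, Ace, Treml4, Fcgr4 and Nr4a1 changed by -2.17 ± 0.29, -2.49 ± 0.30, -2.13 ± 0.30, -2.57 ± 0.42 and -1.91 ± 0.51, with adjusted p of 0.000577 to 0.00688. Mouse by mouse all 7 went down for each of these except Nr4a1, which was higher at T10 in 1 mouse (7.96 log2 CPM).

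F13a1 went up in 7 of 7 Ctrl mice, from 7.39 to 8.68 log2 CPM (median 7.78) at T0 to 7.96 to 9.09 (median 8.87) at T10. Its log2 fold change was 0.74 ± 0.22 (adjusted p = 0.0111), and 2.44 with median ratios (adjusted p = 0.00274). Platelets hold factor XIII, and platelet genes rose at the same time in 8 of 8 cases, among them Pf4 (3.31 ± 0.34), Gp9 (3.27 ± 0.35) and Gp1bb (3.08 ± 0.35), from 874 to 3325 CPM in sum at T0 to 4999 to 13683 CPM at T10. Erythroid genes summed to 9454 to 79482 CPM at T10 and 1082 to 4739 CPM at T0. Of the other classical genes 7 of 7 fell (median -2.79). The part of platelets in F13a1 was not tested, and in the training cohort late month and this shift of the whole library cannot be told apart.

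Across the Ctrl libraries, the genes most like each member were named as a description. The measure was Pearson's r of log2 CPM over 77 training Ctrl libraries, taken over 11036 genes, and libraries of a mouse and the shift of the late months are shared by all points. Treml4 was most like Ace (r = 0.974), Ear2 (0.972), an eosinophil-type ribonuclease of monocytes, and Csf1r (0.968), and over 48 validation Ctrl libraries the same pairs had r = 0.828, 0.830 and 0.705. Ace was most like S1pr5 (0.984), a receptor for sphingosine phosphate, then Treml4 and Adgre4 (0.974 each). Mrc1 was most like Cd209a (0.942, and 0.890 over the validation libraries, where it ranked 1 of all genes). At L, however, Cd209a had a log2 fold change of -3.94 ± 0.57 (adjusted p = 0.000466) while Mrc1 stood at 1.63 ± 0.66.

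F13a1 was most like Alox5ap (0.892 and 0.830), which activates leukotriene synthesis, Lamp2 and Sort1. Fcgr4 was most like Lair1 (0.963 and 0.785), an inhibitory collagen receptor, Smpdl3a and Tlr13. Ly6c2 was most like Npc2 (0.977 and 0.715), a cholesterol carrier of the lysosome, Ifngr1 and Fam234a, and Nr4a1 like Bhlhe40 (0.953 and 0.663), Tnfrsf1b and Sh2b2. Spn was most like Arsb (0.980), which had r = 0.278 in the validation cohort, where it ranked 4025.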

How the data were processed

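Bulk RNA of blood was sequenced, and the deposited values are log2 CPM per gene, with a table for each cohort. Per the submitters' processing notes the tools were STAR, Subread, featureCounts and, for the training cohort, edgeR, with the build GRCm38 and versions not given in the sources used here. Per the labels' protocols, training libraries were made with a kit that removes ribosomal RNA, in randomized batches, and validation libraries with another kit, stranded or not by run. The deposited log2 values undo to whole reads in 100% of cases (tolerance of 0.01 reads, prior of 0.25 reads). Every comparison was fitted over all genes with limma 3.58.1 in R 4.3.3 (intensity trend, two-sided moderated tests, Benjamini-Hochberg adjustment, threshold 0.05). Comparisons of the arms, and of the change per mouse, had sex as a covariate. Comparisons within mice had the mouse as a block, since the labels give the animal. The procedure was tested on simulated data for the comparison of the arms at training T1 alone, and the other designs were not simulated.

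All 8 members were named in every comparison, and from the lists up to 3 called genes with the largest change. Csf1r, Irf8, Csf1, Pou2f2, Kit, Ear2 and the other genes of the likeness were named beside them, some after their values were seen. The members, lists and tests were chosen with earlier results of these data known. Alternatives were median-ratio scaling, a mean log2 CPM above 1, a prior of 2 reads, voom, no sex covariate, fits with or without the mouse as a block or the library batch, Ctrl mice changing to T10, no mice 2700 and 2731, and leaving out each mouse. Listed genes missing from a table (such as Timd4) were not analysed here. The values of 1 listed gene are not reported here. Tables were handled with Python 3.11.15, numpy 2.4.6 and pandas 2.3.3.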

Additional observations from a re-analysis of the deposited data

Results flagged for a closer look

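The members were checked in 264 combinations of gene and group, with 4 to 10 mice a group, for a highest or lowest mouse that lies far from the others, and 26 values met this by Dixon's test. Chance gives about 1 in 20 groups. In the values below, the range of the other mice of the group follows in brackets, in log2 CPM.

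Of these, 6 came from 1 library, CM mouse 3334 at T0 of the training cohort, with more Ly6c2 at 7.71 (5.82 to 6.51), F13a1 at 10.77 (7.35 to 8.10), Treml4 at 5.63 (5.04 to 5.26) and Fcgr4 at 6.04 (4.02 to 4.79) and less Ace at 6.99 (7.69 to 8.05) and Spn at 7.33 (8.30 to 8.56). Its B cell genes summed to 1315 CPM (3374 to 4194 in the others). In CM mouse 3370 at T1 Ly6c2 was 7.83 (5.14 to 6.17) and F13a1 10.09 (7.06 to 8.13). Validation CM mouse 2719 at T3 was low in Ly6c2 at 3.26 (5.28 to 6.28), Nr4a1 at 2.78 (4.32 to 5.48) and Ace at 3.72 (5.60 to 6.69). Mouse 2690 at leukemia was high in Ace at 5.96 (3.87 to 4.49) and Fcgr4 at 6.71 (3.72 to 4.75).

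Other CM mice stood apart in 1 gene at a time. These were 3341 in Nr4a1 at T0 at 5.95 (6.51 to 6.78) and in Fcgr4 at T2 at 3.84 (4.58 to 4.84), 2718 in Nr4a1 at T5 at 4.83 (6.02 to 6.27) and 2684 in Spn at T4 at 10.70 (8.44 to 9.06). Among training Ctrl mice, 3349 was high in Fcgr4 at T0 at 5.48 (4.32 to 4.76), in Spn at T0 at 8.52 (8.07 to 8.21) and in Ly6c2 at T7 at 5.04 (4.20 to 4.53), and 3335 was high in Mrc1 at T9 at 2.83 (0.12 to 1.28). Among validation Ctrl mice, 2683 at T1 was high in Mrc1 at 2.78 (2.01 to 2.28) and low in Spn at 8.19 (8.47 to 8.58). Mouse 2705 was high in Treml4 at T1 at 5.31 (4.76 to 4.95) and low in Fcgr4 at T3 at 4.49 (5.30 to 5.53), and 2702 was low in F13a1 at T6 at 7.64 (8.49 to 8.90).

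The change from T0 differed between CM and Ctrl mice of the training cohort, by limma's test of the difference, for Mrc1 by 2.03 (adjusted p = 0.0334) and for Spn by 3.24 (adjusted p = 0.00249).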

How the results depend on the processing

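No member's called difference changed sign under any setting tried. The number of members that passed at training T1, which was 1, became 2 with genes filtered to a mean log2 CPM above 1, 2 with voom, 3 without the sex covariate, and 0 to 2 with any 1 mouse left out. At T3, where 1 passed, it became 2 with a prior of 2 reads, 2 without the sex covariate, and 0 to 3 with 1 mouse left out. Leaving out 1 mouse gave 1 to 4 at T2, 1 to 2 at validation T1 and 1 to 4 for the change in CM against Ctrl mice. With median ratios 5 of the 8 members passed in Ctrl mice at T10.

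Libraries of a mouse are paired by the animal's number. With a replicate block for the mouse, 1 fit gave as members passing 0 at training T1, 1 at T2, 2 at T3, 1 at T4, 3 at T6 and 1 at validation T3, and with the library batch as well 0 at T1, 0 at T2, 1 at T3 (Treml4 in place of Mrc1), 1 at T4 and 2 at T6. Over all genes that fit gave 466 at T1 against 929, 284 at T2 against 2167, 383 at T3 against 58 higher and 59 lower, 1136 at T4 against 1, 1 at T5 against 0, 4064 at T6 against 3, and in the validation cohort 728 at T1 against 3884, 714 at T2 against 20, 2665 at T3 against 0 and 5 at T6 against 0. With the batch it gave 428, 152, 267, 1 and 2861 at training T1, T2, T4, T5 and T6. Without the block 24 genes passed in training Ctrl mice at T1 against 0, and 2793 against 4532 in validation Ctrl mice.

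Other counts of all genes that moved by over 1.5 times fell, with the same filter, from 929 to 608 at T1, 58 higher and 59 lower to 25 at T3, 3 to 0 at T6, 20 to 0 at validation T2 and 8508 to 4466 for the last CM libraries, where fewer genes were tested. At T3 356 genes passed without the sex covariate. At T6 8 passed with median ratios, 27 with voom, 1 with a prior of 2 reads and 1 without the sex covariate. At T4 3 passed with median ratios, and 0 with a mean above 1. At validation T2 1 passed with a prior of 2 reads, 0 with voom and 56 without mice 2700 and 2731. The single gene of training T0 was lost with the mean above 1, the prior, voom and the block, and in Ctrl mice at T1 2 genes passed with a mean above 1. With 1 mouse left out the count of all genes ranged from 340 to 1379 at T1, 1261 to 2407 at T2, 17 to 180 at T3, 0 to 3 at T4, 0 to 296 at T5, 2 to 26 at T6, 2060 to 4979 at validation T1, 2 to 73 at validation T2, 0 to 5 at validation T5 and 2490 to 9562 for the change in CM against Ctrl mice. The cause was not tested for the others. Reads limit Mrc1 most, since it is the lowest member.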
